A study of Saccharomyces cerevisiae with 12 samples.

Results

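The subject here is the ergosterol pathway downstream of squalene in Saccharomyces cerevisiae, given by the 10 genes ERG1, ERG2, ERG3, ERG4, ERG5, ERG6, ERG7, ERG11, ERG24 and ERG25. A gene was taken where the platform annotation names it by symbol or synonym for a probe set. All 10 were found, each with 1 probe set, among 5449 genes on 5900 probe sets. The laboratory strain CEN.PK113-7D, a haploid, and the industrial wine strain EC1118, a diploid, were each grown at 15 °C and at 30 °C. All 4 groups were anaerobic, nitrogen-limited continuous cultures in minimal medium with anaerobic factors, at a dilution rate of 0.05 per h that sets the same growth rate everywhere. Each group held 3 cultures, described as biological triplicates, and each culture was read on its own Affymetrix Yeast Genome 2.0 array. The labels do not name the anaerobic factors, which in yeast work are usually ergosterol and an unsaturated fatty acid source.

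Ergosterol is the main sterol of yeast membranes, where it sets fluidity and permeability. Its synthesis runs from acetyl-CoA through mevalonate to squalene, and from squalene onward it needs molecular oxygen. Squalene epoxidase, lanosterol demethylase, sterol methyl oxidase and both sterol desaturases consume oxygen, so cells without air cannot complete the pathway and take up sterol from the medium. The genes are known to be induced by Upc2 and Ecm22, activators that respond to low sterol. As the arrays read RNA pooled from a whole culture, fewer cells with a transcript and less of it per cell cannot be told apart.

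Values below are linear intensities of a probe set, with a floor of 10, and differences are on the log2 scale. Array medians ran from 329.0 to 370.8 and replicates correlated with r from 0.975 to 0.994 across genes. Replicate 3 of CEN.PK113-7D at 15 °C and replicate 2 of EC1118 at 30 °C had the lowest mean correlation with the other arrays of their groups, 0.978 and 0.985. The second is barely set apart by this measure, since replicate 1 of its group had 0.986 and replicate 3 of EC1118 at 15 °C also had 0.985. Both were chosen for a joint omission after seeing the data, and calls of the 10 genes that end or arise in it are given both ways. All 11 anaerobic marker genes (such as ANB1, DAN1 and TIR3) were above the floor on every array. The 5 measured of 6 aerobic marker genes were also above it. On each array only 1.9% to 3.31% of all probe sets were at the floor, so this cannot check the label. Summed over the list, the anaerobic markers spanned 18611 to 29764 in EC1118 at 15 °C and 17947 to 30214 in EC1118 at 30 °C, 10067 to 20677 in CEN.PK113-7D at 15 °C and 22935 to 30909 in CEN.PK113-7D at 30 °C. The aerobic sums spanned 1549.6 to 3138 and 2030.6 to 6004 in EC1118 at 15 °C and 30 °C, and 1174 to 2602 and 1522 to 2747 in CEN.PK113-7D at 15 °C and 30 °C. Beside the members in CEN.PK113-7D, the anaerobic sums at 15 °C all lay below those at 30 °C, and their part in the results was not tested.

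All 10 genes gave bright signals, from 725.9 to 5168 over the 12 arrays, against that floor of 10. The brightest of them reached 49.6% to 67.1% of the highest intensity on its array. Within a group the coefficient of variation of a gene over its 3 arrays lay between 1.10% and 16.6%, with a median of 5.24%.

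**Figure D1:**
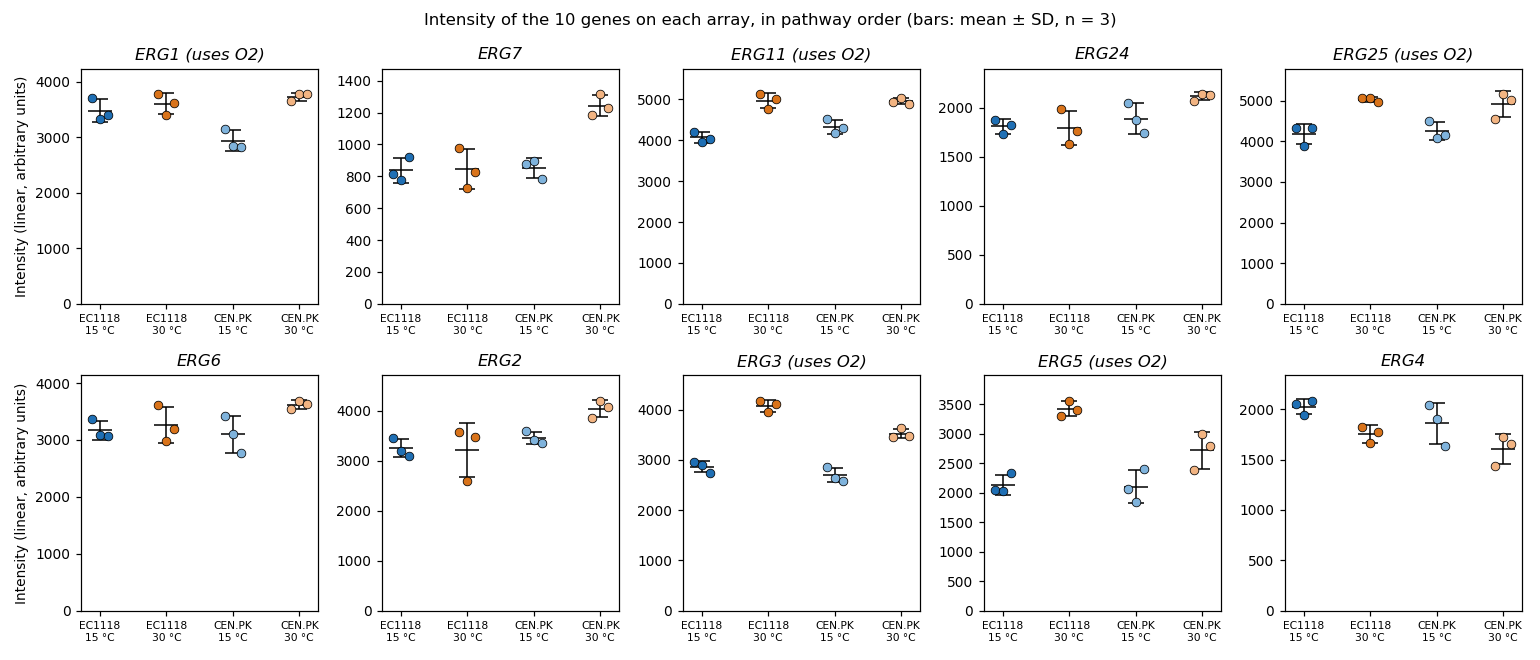
Linear intensity of each of the 10 genes on every array, with the mean and SD of 3 arrays per group (vertical axes start at 0). ERG3, ERG11 and ERG25 separate the temperatures in both strains, and ERG5 and ERG4 do so in EC1118 alone. ERG1, ERG2, ERG6, ERG7 and ERG24 do so in CEN.PK113-7D alone, and ERG7 stands apart only in CEN.PK113-7D at 30 °C.

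In the cold, 4 of the 10 transcripts were lower in both strains: ERG3, ERG5, ERG11 and ERG25, each of which encodes an oxygen-consuming enzyme. Of all 5449 genes, 2113 were called in the same direction in both strains, higher or lower. With both directions pooled, that share is close to the pathway's. The share of all genes lower in both strains was not counted. It cannot exceed the 30.0% of all genes called lower in EC1118. CEN.PK113-7D at 15 °C also had less ERG1 and ERG7 RNA than at 30 °C, and in EC1118 neither gene passed the test. No change was larger than 1.61-fold. ERG4, the gene of the last step, measured higher at 15 °C in both strains without passing the threshold. The comparison asked how temperature affects these transcripts at one growth rate, and used limma with Benjamini-Hochberg adjustment over all 5449 genes and a threshold of 0.05 on the adjusted p.

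Counted over the pathway, 6 of 10 genes fell in CEN.PK113-7D and 0 rose. By the same test 58.5% of all genes were called in that comparison, 36.6% lower and 21.8% higher. In EC1118, 4 of 10 fell and 0 rose, where 54.2% of all genes were called, 30.0% lower and 24.2% higher. At an unadjusted p under 0.05 there was 1 higher gene in each strain, ERG4. These shares lie near the background, so the number of calls does not set the pathway apart. The median log2 change of the 10 genes was -0.23 in CEN.PK113-7D, beside -0.11 for all genes, and -0.04 in EC1118, beside -0.04 for all genes. Intensities at 15 °C did not overlap those at 30 °C for 8 of 10 genes in CEN.PK113-7D, and this held for 62.8% of all genes. In EC1118 it held for 5 of 10 and for 62.7% of all genes.

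The all-gene median itself depends on scaling. With every array centred on its own median, which takes out that shift, 4 of the 10 genes were lower in CEN.PK113-7D (ERG1, ERG3, ERG5 and ERG7) and 1, ERG4, was higher. ERG11 and ERG25 then measured -0.08 (adjusted p = 0.342, limma) and -0.09 (adjusted p = 0.254). In EC1118 the same 4 genes stayed lower after centring, and ERG4 was called higher. The direction of each called change was the same with quantile normalization and with centring in both strains.

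**Figure D2:**
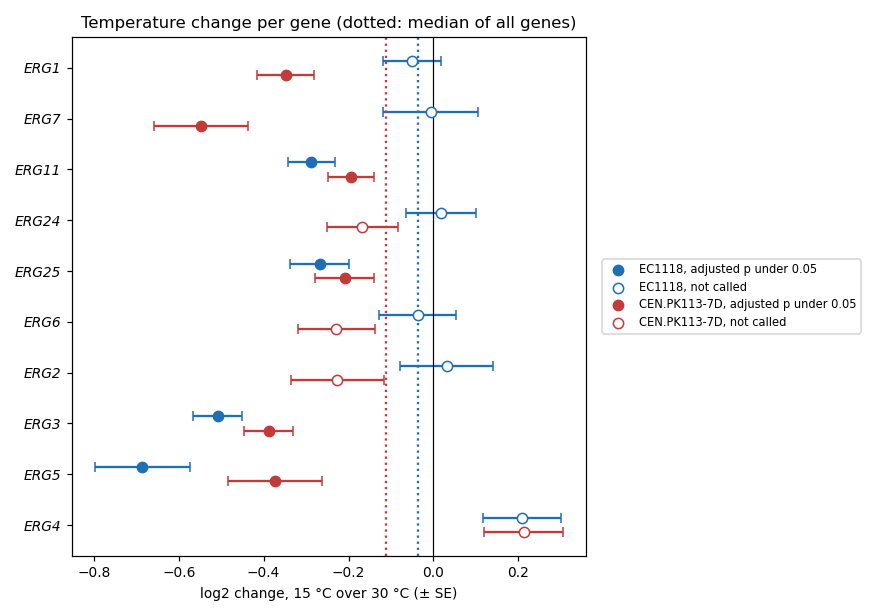
Log2 change of each gene, 15 °C over 30 °C, with its limma standard error in EC1118 and CEN.PK113-7D; filled symbols pass the threshold and dotted lines mark the median of all genes. ERG3, ERG5, ERG11 and ERG25 lie below 0 in both strains, and ERG4 lies above it in both.

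The oxygen-consuming steps were counted apart from the rest. All 5 of their genes fell in CEN.PK113-7D (median -0.35) and 4 of 5 fell in EC1118 (median -0.29), where 36.6% of all genes were lower in CEN.PK113-7D and 30.0% in EC1118. The CEN.PK113-7D count was 3 of 5 with median centring and with quantile normalization, without ERG11 and ERG25, and the EC1118 count was 4 of 5 with either. Of the 5 genes whose step uses no oxygen, 1 fell in CEN.PK113-7D (median -0.23). In EC1118 none of these 5 passed the test, and their median was 0.02. Within an array, the mean log2 intensity of the 5 oxygen-consuming genes minus that of the other 5 was 0.70 to 0.71 in EC1118 at 15 °C and 0.98 to 1.25 in EC1118 at 30 °C, without overlap. In CEN.PK113-7D it was 0.56 to 0.79 at 15 °C and 0.76 to 0.77 at 30 °C, and these ranges overlap through replicate 3 at 15 °C, whose value was the highest there. The difference between strains in this ratio was not tested.

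**Figure D3:**
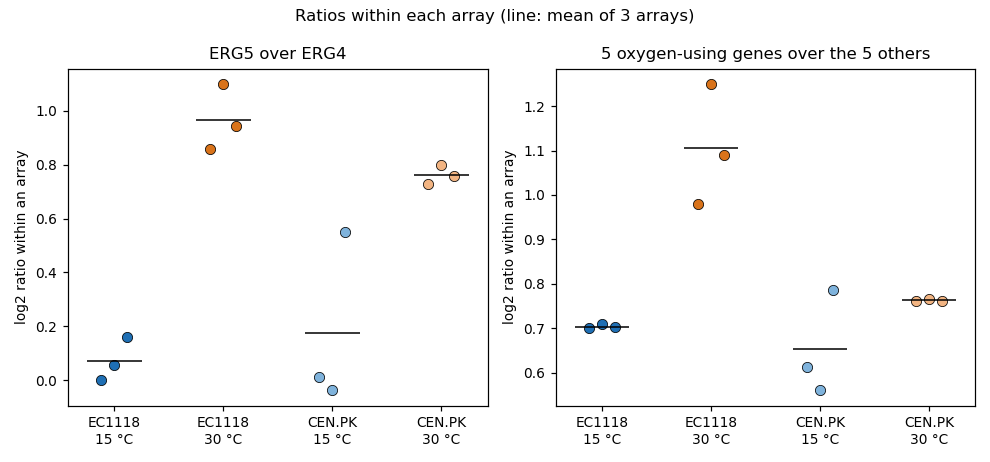
Log2 ratios within each array for ERG5 over ERG4 and for the mean of the 5 oxygen-consuming genes over the mean of the other 5, with 1 point per array and a line at the mean of 3. Both ratios separate the temperatures in EC1118, and in CEN.PK113-7D 1 array at 15 °C lies apart from the other 2.

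ERG1 (YGR175C) encodes squalene epoxidase, the first oxygen-using enzyme of the pathway and the target of terbinafine. In EC1118 it read 3710, 3325 and 3404 at 15 °C, against 3783, 3407 and 3617 at 30 °C. In CEN.PK113-7D it read 3152, 2833 and 2818 at 15 °C, against 3651, 3773 and 3771 at 30 °C. The temperatures overlapped in EC1118 and were apart in CEN.PK113-7D, where every cold culture was below every warm one. ERG1 fell 1.27-fold in CEN.PK113-7D (log2 change -0.35 ± 0.07 SE, limma adjusted p = 0.00145), a call that stood under all 22 alternative settings tried. In EC1118 it measured -0.05 ± 0.07 (adjusted p = 0.558).

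ERG7 (YHR072W) encodes lanosterol synthase, which closes the sterol rings from squalene epoxide and needs no oxygen. Its intensities in EC1118 were 812.7, 776.2 and 922.5 at 15 °C, against 979.5, 725.9 and 830.0 at 30 °C. The CEN.PK113-7D arrays read 876.1, 896.5 and 781.1 at 15 °C, against 1184, 1318 and 1229.8 at 30 °C. The 3 warm CEN.PK113-7D cultures stood above all 9 others, whose values overlapped. ERG7 fell 1.46-fold in the cold in CEN.PK113-7D (-0.55 ± 0.11, limma adjusted p = 0.00182, called in all 22 alternatives), and measured -0.01 ± 0.11 in EC1118 (adjusted p = 0.976).

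ERG11 (YHR007C) encodes lanosterol demethylase, the cytochrome P450 that azole antifungals block. EC1118 gave 4214, 3969 and 4032 at 15 °C, against 5137, 4761 and 5014 at 30 °C. CEN.PK113-7D gave 4515, 4169 and 4307 at 15 °C, against 4930.1, 5035 and 4890.0 at 30 °C. Cold and warm cultures did not overlap in either strain. ERG11 fell 1.22-fold in EC1118 (-0.29 ± 0.05, limma adjusted p = 0.00142) and 1.14-fold in CEN.PK113-7D (-0.19 ± 0.05, adjusted p = 0.0112).

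ERG24 (YNL280C) encodes the reductase that removes the double bond left by the demethylase. It read 1877, 1732 and 1819 in EC1118 at 15 °C, against 1983, 1631 and 1765 at 30 °C. Its CEN.PK113-7D values were 2052, 1871 and 1739 at 15 °C, against 2069, 2142 and 2134 at 30 °C. EC1118 overlapped fully, and in CEN.PK113-7D the highest cold culture lay just below the lowest warm one. Neither strain passed the test, with 0.02 ± 0.08 in EC1118 (limma adjusted p = 0.881) and -0.17 ± 0.08 in CEN.PK113-7D (adjusted p = 0.106). Without replicate 1 of CEN.PK113-7D at 15 °C that change was -0.23 and passed (adjusted p = 0.0476).

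ERG25 (YGR060W) encodes the iron-dependent methyl oxidase that starts removal of the methyl groups from the sterol ring. In EC1118 it read 4325, 3883 and 4329 at 15 °C, against 5060.1, 5054 and 4961 at 30 °C. In CEN.PK113-7D it read 4496, 4078 and 4165 at 15 °C, against 4557, 5168 and 5009 at 30 °C. In EC1118 a wide gap lay between the groups, while in CEN.PK113-7D replicate 1 of the warm cultures came close to the cold ones. ERG25 fell 1.20-fold in EC1118 (-0.27 ± 0.07, limma adjusted p = 0.00788) and 1.16-fold in CEN.PK113-7D (-0.21 ± 0.07, adjusted p = 0.0241). The second call was kept in 14 of 22 alternatives. It was lost without replicate 2 or replicate 3 at 15 °C (adjusted p = 0.0813 and 0.0578), without replicate 2 or replicate 3 at 30 °C (0.0888 and 0.0654), with both named arrays omitted (0.0716) and in a fit of these groups alone (0.0607).

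ERG6 (YML008C) encodes the methyltransferase that adds a methyl group to the sterol side chain, a step that animals lack. It read 3365, 3083 and 3072 in EC1118 at 15 °C, against 3615, 2976 and 3201 at 30 °C. The CEN.PK113-7D arrays read 3420, 3109.6 and 2770.0 at 15 °C, against 3541, 3691 and 3626 at 30 °C. The EC1118 groups overlapped, and in CEN.PK113-7D all 3 cold values were below the warm ones. ERG6 measured -0.04 ± 0.09 in EC1118 (limma adjusted p = 0.751) and -0.23 ± 0.09 in CEN.PK113-7D (adjusted p = 0.0515), just outside the threshold. It passed in 7 of 22 alternatives, among them those without replicate 1 of CEN.PK113-7D at 15 °C (-0.30, adjusted p = 0.0211) and without replicate 1 or replicate 2 of EC1118 at 30 °C (0.0375 and 0.0439).

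ERG2 (YMR202W) encodes the isomerase that shifts a double bond in the sterol ring. It read 3454, 3200.6 and 3099 in EC1118 at 15 °C, against 3565, 2597 and 3470.0 at 30 °C. CEN.PK113-7D gave 3594, 3415 and 3358 at 15 °C, against 3858, 4200.4 and 4073 at 30 °C. Replicate 2 of EC1118 at 30 °C was lower than every other array, and its group had the widest spread (SD 533.7). ERG2 measured 0.03 ± 0.11 in EC1118 (limma adjusted p = 0.831) and -0.23 ± 0.11 in CEN.PK113-7D (adjusted p = 0.0980). The CEN.PK113-7D groups did not overlap, and without both named arrays, one of them this EC1118 array, the CEN.PK113-7D change was -0.21 and passed (adjusted p = 0.0314), as it did with the EC1118 array alone left out (adjusted p = 0.0116).

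ERG3 (YLR056W) encodes the desaturase that introduces a double bond in the sterol ring with oxygen and iron. The EC1118 arrays read 2958, 2906 and 2744 at 15 °C, against 4181, 3953 and 4109 at 30 °C. Its CEN.PK113-7D values were 2856, 2639 and 2592 at 15 °C, against 3459, 3639 and 3482 at 30 °C. Every cold culture of either strain was below every warm culture of both. ERG3 fell 1.42-fold in EC1118 (-0.51 ± 0.06, limma adjusted p = 6.73e-05) and 1.31-fold in CEN.PK113-7D (-0.39 ± 0.06, adjusted p = 0.000281), and both calls were kept in all 22 alternatives.

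ERG5 (YMR015C) encodes the side-chain desaturase, the other cytochrome P450 of the pathway. Its EC1118 values were 2051, 2023 and 2328 at 15 °C, against 3308, 3563 and 3412 at 30 °C. In CEN.PK113-7D it read 2058, 1850.1 and 2403 at 15 °C, against 2378, 2992 and 2797 at 30 °C. The EC1118 groups were far apart. In CEN.PK113-7D replicate 3 of the cold cultures was above replicate 1 of the warm ones. ERG5 had the largest fold of the 10 genes in the cold, 1.61-fold lower in EC1118 (-0.69 ± 0.11, limma adjusted p = 0.000538), and 1.30-fold lower in CEN.PK113-7D (-0.37 ± 0.11, adjusted p = 0.0146). The CEN.PK113-7D call was kept in 19 of 22 alternatives, and lost without replicate 2 at 15 °C (adjusted p = 0.0611), without replicate 2 at 30 °C (0.0596) and in a fit of these groups alone (0.0548).

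ERG4 (YGL012W) encodes the reductase of the side chain that makes ergosterol itself. EC1118 gave 2048, 1948 and 2086 at 15 °C, against 1826, 1661 and 1777 at 30 °C. The CEN.PK113-7D arrays read 2041, 1899 and 1639.8 at 15 °C, against 1437, 1720.5 and 1653 at 30 °C. The EC1118 groups were apart, with all 3 cold values above the warm ones, and those of CEN.PK113-7D overlapped through replicate 3 at 15 °C. The change was 0.21 ± 0.09 in each strain (limma adjusted p = 0.0803 in EC1118 and 0.0717 in CEN.PK113-7D). It passed with centred arrays in both strains (0.29, adjusted p = 0.0277 in EC1118, and 0.33, adjusted p = 0.0144 in CEN.PK113-7D). In EC1118 it also passed without replicate 3 of CEN.PK113-7D at 15 °C (adjusted p = 0.0428) and with the compared groups alone (0.0276). In CEN.PK113-7D it also passed without replicate 3 at 15 °C (0.30, adjusted p = 0.0143) and with both named arrays omitted (0.30, adjusted p = 0.0157). It passed there with quantile normalization too (0.37, adjusted p = 0.0118), and with eBayes trend and robust options (0.21, adjusted p = 0.0467). In all, ERG4 passed in 3 of 22 alternatives in EC1118 and in 5 of 22 in CEN.PK113-7D.

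The genes of consecutive late steps thus moved unequally within an array. The log2 ratio of ERG5 to ERG4 was 0.00 to 0.16 in EC1118 at 15 °C and 0.86 to 1.10 in EC1118 at 30 °C. In CEN.PK113-7D it was -0.04 to 0.55 at 15 °C and 0.73 to 0.80 at 30 °C. The temperatures did not overlap in either strain. A ratio between different probe sets has no meaning as a level, and its change between arrays is what is read here.

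Between the strains at 15 °C, the pathway differed little. One of 10 genes, ERG1, was higher in EC1118 and none was lower, where 33.1% of all genes were called (19.0% higher, 14.1% lower). ERG1 was 1.19-fold higher in EC1118 (0.25 ± 0.07, limma adjusted p = 0.0191), and the 3 EC1118 values stood above the 3 CEN.PK113-7D values. That call was lost in 6 of 22 alternatives, among them the fit with both named arrays omitted (0.22, adjusted p = 0.0515), without replicate 1 of EC1118 (adjusted p = 0.0760) and without replicate 2 or replicate 3 of CEN.PK113-7D (0.0655 and 0.0545). The 9 other genes differed by -0.09 to 0.13, with overlapping groups in each case. Groups were apart for 1 of 10 members and for 44.9% of all genes. With the strains compared on one array design, a sequence difference under a probe and a difference in RNA cannot be told apart.

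At 30 °C, 5 of 10 genes differed between the strains, in both directions, where 41.4% of all genes were called (21.0% higher, 20.4% lower). ERG7 was 1.48-fold lower in EC1118 (-0.57 ± 0.11, limma adjusted p = 0.00244), ERG2 was 1.27-fold lower (-0.35 ± 0.11, adjusted p = 0.0269) and ERG24 was 1.18-fold lower (-0.24 ± 0.08, adjusted p = 0.0376). ERG5 was 1.26-fold higher (0.34 ± 0.11, adjusted p = 0.0321) and ERG3 was 1.16-fold higher (0.21 ± 0.06, adjusted p = 0.0150). The 3 lower genes belong to steps without oxygen, and the 2 higher genes to desaturases. Groups did not overlap for these 5 of 10 genes, as for 54.9% of all genes.

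These calls differed in how they held. ERG7 was called in all 22 alternatives and ERG3 in 21, the exception being the fit without replicate 1 of EC1118 at 30 °C (adjusted p = 0.0517). Without both named arrays, ERG2 measured -0.20 (adjusted p = 0.0509), ERG24 -0.18 (adjusted p = 0.0937) and ERG5 0.31 (adjusted p = 0.0550). With 1 array left out, ERG2 lost its call without replicate 2 of EC1118 at 30 °C (-0.20, adjusted p = 0.0506) and without replicate 2 or replicate 3 of CEN.PK113-7D at 30 °C (0.0820 and 0.0665). ERG24 lost its call without any 1 CEN.PK113-7D array at 30 °C (0.0619 to 0.0938), without replicate 2 of CEN.PK113-7D at 15 °C (0.0501) and without replicate 2 or replicate 3 of EC1118 at 30 °C (0.133 and 0.0918). ERG5 lost its call without any 1 EC1118 array at 30 °C (0.0542 to 0.0909) and without replicate 1 or replicate 3 of CEN.PK113-7D at 30 °C (0.113 and 0.0560). Scaling mattered too. ERG24 missed the threshold with median centring (0.0547), quantile normalization (0.101) and the compared groups alone (0.0607). ERG2 missed it with quantile normalization (0.0558) and the compared groups alone (0.0837). In all, ERG24 was called in 12 of 22 alternatives, and ERG2 and ERG5 in 16 each. Replicate 2 of EC1118 at 30 °C had the lowest value of its group for 8 of the 10 genes, and for all 5 genes of steps without oxygen. The same array had the lowest value of its group for 9 of 11 anaerobic markers and the highest for 5 of 5 aerobic markers. It was not alone in this. Replicate 3 of each other group was lowest for 8 or 9 of the 11 anaerobic markers and highest for 4 or 5 of the 5 aerobic ones. The part of these array differences in the result was not tested.

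**Figure D4:**
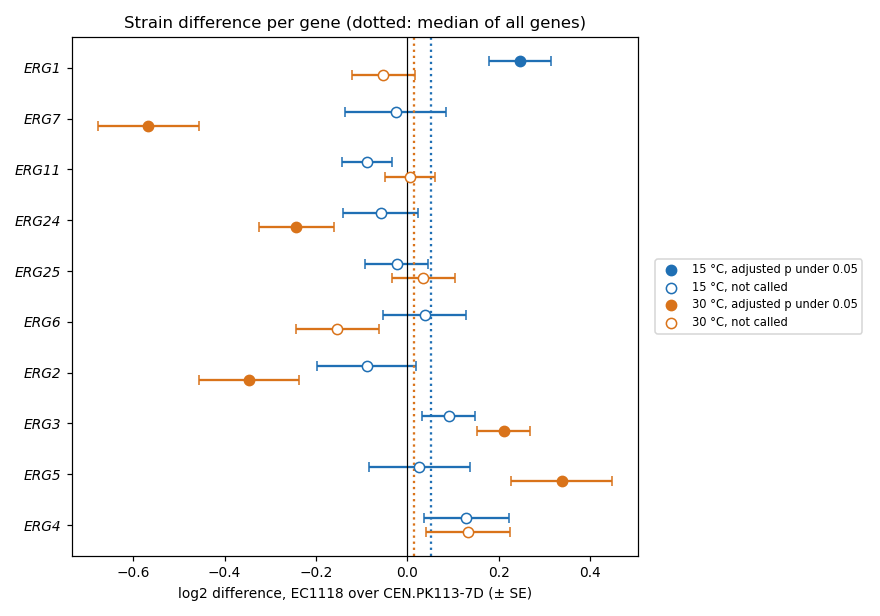
Log2 difference of each gene, EC1118 over CEN.PK113-7D, with its limma standard error at 15 °C and at 30 °C; filled symbols pass the threshold. At 15 °C ERG1 alone passes, while at 30 °C ERG7, ERG2 and ERG24 lie below 0 and ERG3 and ERG5 above it.

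Whether the temperature effect itself differed between strains was tested with the interaction, EC1118 minus CEN.PK113-7D. Among the 10 genes ERG7 passed (0.54 ± 0.16, limma adjusted p = 0.0477), where 13.0% of all genes were called (8.68% higher, 4.37% lower). The call was lost in 16 of 21 alternatives. Leaving out any 1 array but replicate 1 of EC1118 at 30 °C ended it (adjusted p = 0.0571 to 0.109), and without both named arrays the difference was 0.38 (adjusted p = 0.116). ERG1 measured 0.30 ± 0.10 (adjusted p = 0.0705) and ERG5 -0.31 ± 0.16 (adjusted p = 0.223). ERG1, called in CEN.PK113-7D and not in EC1118, is therefore not shown to differ between them. Its interaction passed in 2 of 21 alternatives. These were eBayes with trend and robust options (0.30, adjusted p = 0.0268) and the fit without replicate 1 of CEN.PK113-7D at 15 °C (0.35, adjusted p = 0.0456).

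Ordered by mean intensity, ERG3 and ERG5 had the same sequence of groups, with EC1118 at 30 °C first, CEN.PK113-7D at 30 °C next and both cold groups last. Neighbours in that order did not overlap down to EC1118 at 15 °C, and the cold groups overlapped each other. For ERG5 the cold and warm CEN.PK113-7D groups overlapped too, as given above. For ERG1 the first 3 groups overlapped as neighbours, and CEN.PK113-7D at 15 °C lay below them. For ERG11 and ERG25 both warm groups overlapped, and both lay above the cold ones. ERG7, ERG2 and ERG24 had CEN.PK113-7D at 30 °C above the other 3 groups, which overlapped as neighbours in the order. ERG6 showed overlap between all neighbours, and so did ERG4, whose cold groups had the higher means.

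The genes closest to the pathway's mean profile were sought outside it, by the root mean square log2 difference over the 12 arrays after centring each gene. SOG2 (0.06), TRX1 (0.07), SNF1 (0.07), CLB3 (0.07) and ACT1 (0.08) were nearest, where the median gene stood at 0.29. The 10 genes themselves ranged from 0.06 for ERG11 to 0.25 for ERG5. This likeness is a description of 12 arrays, and says nothing of shared function or control.

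Genes of the steps that lead to squalene were read beside these. Of 10 genes from ERG10 to ERG9, 6 rose at 15 °C in EC1118, where 24.2% of all genes were called higher, and the count was 4 to 8 over the alternatives. Their median was 0.35, beside -0.04 over all genes. ERG20, the farnesyl diphosphate synthase, read 1934, 1868 and 2009.5 at 15 °C, against 1148, 993.8 and 1156 at 30 °C (0.82 ± 0.09, 1.77-fold higher, limma adjusted p = 3.69e-05). ERG13 (0.52), ERG12 (0.51) and ERG10 (0.38) were called in all 22 alternatives, as was ERG20. ERG8 (0.41) lost its call without replicate 1 or replicate 3 of EC1118 at 15 °C and without replicate 2 or replicate 3 at 30 °C (adjusted p = 0.0512 to 0.0950). IDI1 (0.32) lost it without replicate 3 at 15 °C and without replicate 1 or replicate 3 at 30 °C (0.0559 to 0.0862). In CEN.PK113-7D 1 of the 10 rose, IDI1 (0.31), where 21.8% of all genes were higher. That call ended without both named arrays (0.24, adjusted p = 0.0863), without replicate 3 at 15 °C (0.0910) and without replicate 1 at 30 °C (0.103). The 1 that fell was ERG9 (-0.29), the squalene synthase whose product ERG1 uses, and it missed the threshold once arrays were median-centred (adjusted p = 0.138) or quantile-normalized (0.297). The difference between the genes before and after squalene was not tested.

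**Figure D5:**
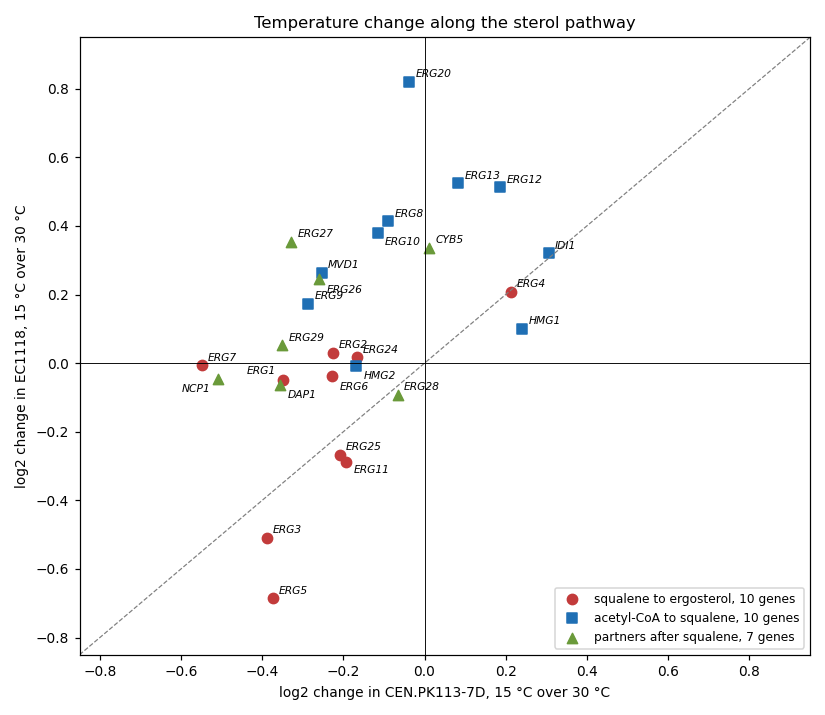
Log2 change with temperature, 15 °C over 30 °C, in CEN.PK113-7D (horizontal) and EC1118 (vertical) for the 10 genes after squalene, the 10 genes leading to it and 7 partner genes. Genes after squalene lie mostly at or below 0 on the vertical axis and genes leading to squalene mostly above it.

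Partner genes of the same enzymes were also read. ERG26 and ERG27 complete the demethylation begun by ERG25, ERG28 tethers that complex, and NCP1 and CYB5 supply electrons to the oxygen-using enzymes. In CEN.PK113-7D 5 of 7 partners fell in the cold, where 36.6% of all genes were lower, and the count was 1 to 5 over the 22 alternatives. NCP1 fell by 0.51 on the log2 scale, called in all 22, and DAP1, ERG29, ERG27 and ERG26 fell by 0.26 to 0.35. With median centring and quantile normalization these 4 lost their calls. Without both named arrays, ERG29 measured -0.25 (limma adjusted p = 0.121) and DAP1 -0.29 (adjusted p = 0.0938). With 1 array left out, ERG29 was called in 4 of 12 fits, DAP1 and ERG26 in 8 each and ERG27 in 12. Leaving out replicate 2 or replicate 3 at 15 °C or replicate 3 at 30 °C in CEN.PK113-7D ended the calls of ERG29, DAP1 and ERG26. Replicate 2 at 30 °C did so for ERG29 and ERG26, replicate 1 at 30 °C for DAP1, and each EC1118 array at 15 °C and replicate 3 of EC1118 at 30 °C for ERG29.

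In EC1118, 2 of 7 partners rose, ERG27 (0.35) and ERG26 (0.24), where 24.2% of all genes were higher. ERG27 was called in all 22 alternatives. ERG26 was called in 11, and measured 0.15 without replicate 2 at 30 °C (limma adjusted p = 0.164), as it did without both named arrays (adjusted p = 0.142). Other single arrays that ended that call (adjusted p = 0.0507 to 0.125) were each EC1118 array at 15 °C, replicate 3 of EC1118 at 30 °C, replicates 1 and 2 of CEN.PK113-7D at 15 °C and replicate 3 of CEN.PK113-7D at 30 °C. In the interaction ERG27 passed (0.68 ± 0.13, adjusted p = 0.00859), also in all 21 alternatives. ERG26 passed (0.50 ± 0.13, adjusted p = 0.0299), but in 12 of 21 alternatives, and measured 0.37 without both named arrays (adjusted p = 0.0615).

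Among 9 sterol and oxygen regulators, 2 fell and 2 rose at 15 °C in EC1118, and 4 fell and 2 rose in CEN.PK113-7D. These shares lie near the 54.2% and 58.5% of all genes called in EC1118 and CEN.PK113-7D. HAP1, a heme-sensing activator, fell 2.42-fold in EC1118 and 2.67-fold in CEN.PK113-7D. UPC2, the sterol-sensing activator, fell 1.57-fold in EC1118 (-0.65 ± 0.15, limma adjusted p = 0.00441) and 1.72-fold in CEN.PK113-7D (-0.79 ± 0.15, adjusted p = 0.00126). Its relative ECM22 fell in CEN.PK113-7D (-0.79 ± 0.15) and measured 0.07 ± 0.15 in EC1118. SUT1, a regulator of sterol uptake, fell in CEN.PK113-7D (-1.05 ± 0.24). NSG1, a partner of Hmg2, rose in both strains (0.85 in EC1118 and 0.76 in CEN.PK113-7D), and so did SUT2 (0.92 in EC1118 and 0.51 in CEN.PK113-7D).

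Of 4 genes of sterol uptake and esterification, 1 rose and 1 fell in EC1118, and 1 rose and 2 fell in CEN.PK113-7D. Of all genes, 54.2% were called in EC1118 and 58.5% in CEN.PK113-7D, so these few calls do not set the list apart. PDR11, a sterol importer, fell in both strains (-1.12 in EC1118 and -1.96 in CEN.PK113-7D). The EC1118 call was lost in 5 of 22 alternatives (limma adjusted p = 0.0503 with quantile normalization and 0.0663 to 0.101 without replicate 2 or replicate 3 at 15 °C, or replicate 1 or replicate 3 at 30 °C). The other importer, AUS1, passed in neither, with 0.27 ± 0.65 in EC1118 (adjusted p = 0.747) and -1.21 ± 0.65 in CEN.PK113-7D (adjusted p = 0.134). ARE2, which esterifies sterols, rose in both strains (2.45 in EC1118 and 2.75 in CEN.PK113-7D). Its relative ARE1 measured 0.14 ± 0.23 in EC1118 (adjusted p = 0.631) and fell in CEN.PK113-7D (-0.58 ± 0.23, adjusted p = 0.0461). It missed the threshold in 11 of 22 alternatives, 7 of them single-array omissions (replicates 2 and 3 at 15 °C and 1 and 2 at 30 °C in CEN.PK113-7D, replicate 2 at 15 °C and replicates 1 and 3 at 30 °C in EC1118). Without replicate 3 of CEN.PK113-7D at 15 °C, and likewise without both named arrays, it measured -0.39 (adjusted p = 0.161 and 0.122).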

How the data were processed

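Per the labels' protocols, each culture was cooled on crushed ice before kit extraction of its RNA, and labelled cRNA went to 1 array. The authors deposited a linear intensity for each probe set on each array. How they summarised and normalized it is not given in the sources used here. Intensities were used as deposited and taken to log2. Of 5900 probe sets, 5498 had 1 gene in the platform annotation (12 symbols updated through the RefSeq gene table) and 402 had none here. Each of the 47 genes with several was read from its brightest probe set on average, giving 5449 genes. Precision is limited by the number of arrays.

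The fit of all 12 arrays used limma 3.58.1 under R 4.3.3, with lmFit and eBayes (1 coefficient per group, no block, 8 residual and 2.22 prior degrees of freedom). Adjusted p-values are two-sided, Benjamini-Hochberg over 5449 genes, with a threshold of 0.05, and folds come from means of log2 values. The script was tested on simulated data. The members and gene lists were chosen with earlier results of these data known. All members were named, with the genes past the threshold of each list in the temperature comparisons described, other list genes a result needed, and the 5 genes nearest the members' mean profile. AUS1, PDR11 and HEM13 stand in the anaerobic marker list and also in the sterol uptake or heme lists.

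The alternatives were median centring, quantile normalization, a pseudocount of 50, dim genes left out, eBayes with trend and robust options, the compared groups alone, a replicate block, averaged probe sets per gene, probe sets kept as separate features, and each array left out in turn. The joint omission of replicate 3 of CEN.PK113-7D at 15 °C and replicate 2 of EC1118 at 30 °C was added after seeing the data. Same-numbered replicates deviated together in every pair, with correlations of 0.478, 0.321 and 0.393, only between strains at 15 °C. Replicate 1 also did so between temperatures in CEN.PK113-7D (0.373) and EC1118 (0.37) and between strains at 30 °C (0.337). In those comparisons replicates 2 and 3 ran from -0.24 to 0.168. The labels do not state a pairing. Fits that omit 1 array still pool the spread over all groups.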

Additional observations from a re-analysis of the deposited data

Results flagged for a closer look

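Of 61 genes tested in the pathway, the lists read beside it and the marker lists, 9 had a temperature change that differed between the strains in the interaction (limma, adjusted p under 0.05), where 13.0% of all genes were called, 8.68% higher and 4.37% lower. Each difference is EC1118 minus CEN.PK113-7D, with the change at 15 °C over 30 °C in EC1118 and in CEN.PK113-7D after it. ERG7 differed by 0.54 ± 0.16 (adjusted p = 0.0477), with -0.01 in EC1118 and -0.55 in CEN.PK113-7D, and the call was lost in 16 of 21 alternatives. ERG27 differed by 0.68 ± 0.13 (0.35 and -0.33), ERG20 by 0.86 ± 0.12 (0.82 and -0.04) and ERG10 by 0.50 ± 0.10 (0.38 and -0.12). COX5B, the cytochrome c oxidase subunit used at low oxygen, differed by 0.74 ± 0.14, with -0.66 in EC1118 and -1.39 in CEN.PK113-7D. The calls of ERG27, ERG20, ERG10 and COX5B held in all 21 alternatives.

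ERG26 differed by 0.50 ± 0.13 (0.24 and -0.26), lost in 9 of 21 alternatives, with 0.37 when replicate 3 of CEN.PK113-7D at 15 °C and replicate 2 of EC1118 at 30 °C were both omitted (adjusted p = 0.0615). Single arrays that ended it were replicates 2 and 3 of CEN.PK113-7D at each temperature, replicates 1 and 3 of EC1118 at 15 °C and replicate 3 of EC1118 at 30 °C. ERG9 differed by 0.46 ± 0.11 (0.17 and -0.29), lost in 6 of 21. These were median centring (adjusted p = 0.0601), quantile normalization (0.105), the omission of both those arrays (0.37, 0.0633), and fits without replicate 2 of CEN.PK113-7D at 30 °C (0.0567), replicate 1 of EC1118 at 15 °C (0.0546) or replicate 3 of EC1118 at 30 °C (0.0502). ECM22 differed by 0.86 ± 0.21 (0.07 and -0.79), lost in 5 of 21 and at 0.63 without both those arrays (adjusted p = 0.0615). SUT1 differed by 1.39 ± 0.34 (0.34 and -1.05), lost in 4 of 20. The single arrays that ended the ECM22 and SUT1 calls were replicate 2 of CEN.PK113-7D at 15 °C, replicate 1 of CEN.PK113-7D at 30 °C, replicate 1 of EC1118 at 15 °C and replicate 3 of EC1118 at 30 °C.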

How the results depend on the processing

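Of 1090 values of single members under an alternative, 972 kept their direction and side of the threshold, 58 lost the call, 21 gained one and 39 changed sign, none of the last being called. In EC1118 the temperature calls of ERG3, ERG5, ERG11 and ERG25 held in all 22 alternatives. With replicate 3 of CEN.PK113-7D at 15 °C and replicate 2 of EC1118 at 30 °C both omitted, 0 members were called between strains at 15 °C, 2 at 30 °C and 0 in the interaction. Median centring gave 0 at 15 °C and 0 in the interaction, quantile normalization 3 at 30 °C and 0 in the interaction, and the compared groups alone 0 at 15 °C and 3 at 30 °C. The interaction had 2 with trend and robust options, 0 with all probe sets as separate features, and 0 with the replicate block, where ERG7 had adjusted p = 0.0662. Where these limma counts were 0, 1 to 3 members had an unadjusted p under 0.05. Among members the replicate block changed 1 other call, ERG6 in CEN.PK113-7D (adjusted p = 0.0333), for 7 members there. With 1 array left out, calls numbered 4 to 5 for temperature in EC1118, 4 to 8 in CEN.PK113-7D, 0 to 1 between strains at 15 °C, 2 to 5 at 30 °C and 0 to 1 in the interaction. Over all genes the interaction called 711, and 468 without replicate 1 of EC1118 at 15 °C. Partner genes lower in CEN.PK113-7D numbered 5, with 1 to 5 over the alternatives, and higher in EC1118 2, with 1 to 3. Heme genes higher numbered 4 in EC1118 (2 to 4) and 1 in CEN.PK113-7D (0 to 3). Signs turned with median centring for temperature in EC1118 (ERG1 0.0281, ERG6 0.0409, ERG7 0.0716) and strain at 15 °C (ERG5 -0.0123, ERG6 -0.000579). They turned with quantile normalization for ERG7 with temperature in EC1118 (0.0896), ERG5 and ERG25 between strains at 15 °C (-0.0158 and 0.00311) and ERG1 at 30 °C (0.00525). With both omitted they turned for ERG2 and ERG24 with temperature in EC1118 (-0.115 and -0.0487) and ERG6 between strains at 15 °C (-0.0407). With 1 array left out, temperature in EC1118 spanned -0.115 to 0.114 for ERG2, -0.0487 to 0.0920 for ERG24, -0.102 to 0.0385 for ERG6 and -0.111 to 0.105 for ERG7. Strain at 15 °C spanned -0.116 to 0.00386 for ERG24, -0.0523 to 0.0282 for ERG25, -0.0624 to 0.126 for ERG5, -0.0407 to 0.111 for ERG6 and -0.0974 to 0.0272 for ERG7. Strain at 30 °C spanned -0.0192 to 0.0357 for ERG11 and -0.0180 to 0.0728 for ERG25, and the ERG4 interaction -0.0914 to 0.0734. The cause of these shifts was not tested.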

Other observations

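Genes of heme synthesis, whose product both cytochrome P450 enzymes of the pathway carry, were read beside it. In EC1118, 4 of 8 rose at 15 °C (median 0.31), where 24.2% of all genes were higher. These were HEM3 (1.01), HEM4 (0.64), HEM15 (0.53) and HEM12 (0.48). HEM3 lay near the floor of 10 in EC1118, with 52.5, 21.1 and 36.1 at 15 °C against 16.9, 16.1 and 18.0 at 30 °C. It was called in 10 of 21 alternatives. The change was 0.70 (limma adjusted p = 0.163) without replicate 1 of EC1118 at 15 °C, and 0.35 (adjusted p = 0.0818) with a pseudocount of 50. In CEN.PK113-7D 1 rose, HEM12 (0.48), and 1 fell, HEM14 (-0.73), with a median of 0.03, where 58.5% of all genes were called. Over the alternatives 2 to 4 were higher in EC1118 and 0 to 3 in CEN.PK113-7D. HEM13, the gene of an oxygen-using step of heme synthesis but not of the only one, passed in neither strain. It measured 0.15 ± 0.23 in EC1118 (limma adjusted p = 0.599) and -0.51 ± 0.23 in CEN.PK113-7D (adjusted p = 0.0776).

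In every group replicate 1 had the lowest value for all 5 measured aerobic markers and the highest for 9 or 10 of the 11 anaerobic markers. In CEN.PK113-7D at 30 °C the same replicate had the lowest value for 9 of the 10 sterol genes. In CEN.PK113-7D at 15 °C replicate 1 had the highest value for 8 of the 10, and in EC1118 it had the highest for 6 at 15 °C and for 9 at 30 °C.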
